A study of Mus musculus with 12 samples.

Results

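The genes described here drive a cell through DNA replication and mitosis. They were chosen by function, 15 for replication (Mcm2 to Mcm7, Pcna, Rrm1, Rrm2, Tyms, Prim1, Cdc6, Cdt1, Ccne1 and Ccne2) and 18 for mitosis (Mki67, Top2a, Ccna2, Ccnb1, Ccnb2, Cdk1, Cdc20, Bub1, Bub1b, Aurka, Aurkb, Plk1, Birc5, Kif11, Kif20a, Cenpe, Foxm1 and Tpx2). A gene was measured through the probe sets annotated to it alone. On that rule 32 of the 33 genes were found, among 20262 genes with such a probe set in the series, and Ccnb1 was not analysed here. On the array of macrophages and liver these genes had 34 probe sets, and on that of the aorta 62. Where a gene had several, the brightest was used.

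All mice were C57BL/6J and lacked Apoe, which leaves lipoproteins poorly cleared from the blood. Mice lacking Apoe alone (Apoe-/-) were the controls, and Prkch-/-Apoe-/- mice, which also lack the gene of protein kinase C eta, are called knockouts. Peritoneal macrophages elicited with thioglycolate came from females on regular diet, unstimulated, with 3 arrays per genotype; replicates 1, 2 and 3 were aged 18, 17 and 27 weeks in both genotypes. Liver was taken from males 20 weeks old that had eaten high fat diet for 12 weeks and had been re-fed, on 2 arrays for each genotype. Fed males of this age and diet gave the aortas, and the RNA of 4 mice of a genotype was pooled on 1 array. The labels tie the deletion of Prkch to no cell type, so effects within the sampled cells and effects of the rest of the animal cannot be told apart. They call the macrophage and liver arrays biological replicates, and p-values measure the spread between the deposited values of these samples. For macrophages that spread includes differences between 2 sets of arrays and exact ties within 1 of them, described below.

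The replication genes act in order. Cdt1 and Cdc6 load the helicase formed by Mcm2 to Mcm7 onto DNA in G1, cyclin E (Ccne1, Ccne2) helps to start S phase, and Pcna, the primase subunit Prim1 and the enzymes of nucleotide supply (Rrm1, Rrm2, Tyms) serve DNA synthesis. The mitosis genes act later, as cyclins and their kinase, as spindle motors and checkpoint kinases, and as Foxm1, a transcription factor of the G2 genes. As background, most hepatocytes of an adult liver rest outside the cycle, elicited peritoneal macrophages divide little, and macrophages and smooth muscle cells of an atherosclerotic artery can divide.

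The 2 groups were set by function and are described apart. Their promoters also differ in how often they carry certain short words, as the counts below give. The sequences of 4 genes are printed as examples. They are the 2 genes of each group with the smallest p in macrophages or liver for which RefSeq (GRCm38.p6) gave a promoter from 250 bases before to 50 bases after the start. Each sequence is written 5′ to 3′ on the strand of its gene, and capitals mark every match, on either strand, to an E2F word (TTCCCGC, with TTCGCGC, then TTGCCGC and lastly TTGGCGC), to a cell cycle homology region or CHR (TTTGAA or TTCGAA), or to CCAAT. E2F proteins are known as regulators of genes of S phase, and the CHR as an element of genes of G2 and mitosis.
Mcm3, chr1:20820263-20820562, minus strand: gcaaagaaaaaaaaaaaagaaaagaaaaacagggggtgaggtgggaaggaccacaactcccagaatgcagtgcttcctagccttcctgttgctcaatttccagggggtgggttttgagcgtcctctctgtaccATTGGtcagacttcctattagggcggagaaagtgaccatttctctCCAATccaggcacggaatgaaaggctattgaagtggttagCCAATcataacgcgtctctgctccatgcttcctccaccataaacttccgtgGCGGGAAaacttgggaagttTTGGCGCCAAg
Cdc6, chr11:98907901-98908200, plus strand: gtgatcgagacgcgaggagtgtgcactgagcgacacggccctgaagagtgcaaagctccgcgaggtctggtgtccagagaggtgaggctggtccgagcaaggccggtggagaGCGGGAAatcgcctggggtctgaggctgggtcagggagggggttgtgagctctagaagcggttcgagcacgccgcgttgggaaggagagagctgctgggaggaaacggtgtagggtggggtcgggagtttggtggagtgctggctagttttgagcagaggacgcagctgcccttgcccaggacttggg
Plk1, chr7:122159185-122159484, plus strand: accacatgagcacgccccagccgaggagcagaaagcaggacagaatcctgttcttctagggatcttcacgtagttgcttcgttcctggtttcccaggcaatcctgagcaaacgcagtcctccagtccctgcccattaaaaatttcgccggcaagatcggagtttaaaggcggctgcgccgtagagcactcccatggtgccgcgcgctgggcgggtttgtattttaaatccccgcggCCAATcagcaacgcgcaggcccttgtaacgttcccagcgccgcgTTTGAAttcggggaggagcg
Bub1b, chr2:118597961-118598260, plus strand: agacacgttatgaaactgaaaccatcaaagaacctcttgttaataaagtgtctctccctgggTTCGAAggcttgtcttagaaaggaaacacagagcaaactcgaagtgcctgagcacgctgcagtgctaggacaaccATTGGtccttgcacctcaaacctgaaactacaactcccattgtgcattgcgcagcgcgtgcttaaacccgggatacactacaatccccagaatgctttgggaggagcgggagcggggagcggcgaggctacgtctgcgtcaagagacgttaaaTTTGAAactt
The Mcm3 promoter held 3 E2F words, of which a pair on opposite strands overlap downstream of the start, and no CHR. Cdc6 held 1 E2F word and no CHR, Plk1 held 1 CHR, and Bub1b held 2 CHR words. Among the promoters of these genes, E2F words stood in those of 9 of 13 replication genes and 2 of 12 mitosis genes (Mki67 and Cdk1), against 10.9% of 27025 genes with a listed promoter. CHR words stood in 2 of 13 replication genes and 10 of 12 mitosis genes, against 21.7% of all genes, and CCAAT in 9 of 13 and 11 of 12, against 41.1%. Mcm4, Ccne2, Ccna2, Aurkb, Kif20a, Foxm1 and Tpx2 had no match in the promoter table. A match is a description of letters and not a site shown to be bound.

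Values of macrophages and liver are the authors' log2 probe set levels, with array medians between 6.57 and 6.77 in macrophages and between 5.88 and 5.93 in liver. Aorta values are linear signals, with array medians of 27.8 (control pool) and 30.1 (knockout pool). The number of arrays limits the precision. Macrophage markers summed to between 45812 and 51239 linear units on the macrophage arrays, hepatocyte markers to between 91852 and 95026 in liver, and all 5 smooth muscle markers passed the filter in the aorta. Prkch itself read 9.94, 9.86 and 9.31 in control macrophages and 9.36, 8.79 and 8.87 in knockouts (limma, Benjamini-Hochberg adjusted p = 1.00), and 6.57 and 6.87 in control livers against 5.93 and 5.65 in knockouts (adjusted p = 0.573). Its aorta signals of 17.2 and 9.94 were too dim to pass the filter.

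The macrophage arrays fall into 2 sets that matter for every result on them. Control 3 and knockouts 2 and 3, called set 2, shared between 16075 and 18000 exactly identical values per pair among 35557 probe sets, controls 1 and 2 and knockout 1, called set 1, shared between 53 and 69, and pairs across the sets shared 0 to 3. The labels do not say what the sets are. Both samples aged 27 weeks lie in set 2, so age and set cannot be fully told apart. For 41.2% of the genes tested, all 3 arrays of set 2 carried the same number. The same held for 4 of the 14 replication genes and 7 of the 17 mitosis genes tested, so that within set 2 their genotypes differed by exactly 0.

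In macrophages no cell cycle gene differed between genotypes beyond the spread of the arrays. Of 15039 genes tested with limma, 0 were called at an adjusted p under 0.05 in either direction, and 105 (0.698%) had an unadjusted p under 0.05, 0.12% higher and 0.578% lower, none of them a member. Replication genes were lower in knockouts for 10 of the 14 that passed the filter on dim genes, a mean level at or above the 30th percentile of all probe sets (Ccne2 did not), and mitosis genes for 16 of 17, against 63.5% of all genes tested. With arrays centred on their medians these counts were 9 of 14 and 15 of 17, and the share of all genes was 51.6%. The median difference was -0.088 for replication genes and -0.12 for mitosis genes on the log2 scale, against -0.036 for all genes tested. In RNA taken from many cells together, fewer dividing cells and less of these transcripts per cell cannot be told apart.

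Among replication genes Tyms and Rrm2 had the smallest p. Tyms, thymidylate synthase, had control levels of 6.71, 6.93 and 6.55 and knockout levels of 6.51, 6.43 and 6.48. It was the only member whose genotypes did not overlap, with every knockout below every control, as did 1.6% of all genes; no member lay wholly above the controls, as 0.652% of genes did. The difference was -0.26 ± 0.11 (SE, n = 3 and 3; limma, adjusted p = 1.00). Rrm2, the regulated subunit of ribonucleotide reductase, read 7.25, 7.10 and 6.71 in controls, and the knockouts were at 6.87, 6.68 and 6.68; the difference was -0.27 ± 0.15 (SE). Its lowest control lay below the highest knockout. Rrm1, the other subunit, differed by -0.086 ± 0.089.

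None of the remaining replication genes separated the genotypes. Prim1 differed by -0.19 ± 0.16 and Mcm5 by -0.090 ± 0.078. Among the helicase subunits, Mcm2 lay between 7.90 and 8.09 on all 6 arrays, Mcm3 between 8.94 and 9.09 and Mcm4 between 7.90 and 8.21. Mcm7 ranged from 7.68 to 8.15, with both extremes in controls. Mcm6 read 9.60 on knockout 2 and between 8.97 and 9.26 elsewhere, and its mean was 0.090 higher in knockouts. The helicase therefore held genes on either side of 0. Of the loading factors, Cdt1 ranged from 9.32 to 9.95 and Cdc6 from 6.02 to 6.74, and in each the genotypes overlapped. Pcna, the sliding clamp, ranged from 11.1 to 11.5 and Ccne1 from 7.11 to 7.50. The adjusted p was 1.00 for each of these genes.

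Among mitosis genes Foxm1, the transcription factor, had the smallest p. It read 6.82, 6.74 and 6.30 in controls, and the knockouts were at 6.43, 6.30 and 6.30; the difference was -0.28 ± 0.15 (SE, n = 3 and 3). Plk1, the polo-like kinase of mitotic entry, read 7.71, 7.53 and 7.08 in controls, and the knockouts were at 7.31, 6.98 and 7.06; the difference was -0.32 ± 0.18. In both, control 3 lay with the knockouts and below controls 1 and 2. Ccna2, cyclin A2, read 7.17, 7.17 and 6.55 in controls, and the knockouts were at 6.92, 6.55 and 6.55; the difference was -0.29 ± 0.20. It repeats the picture, since control 3 and knockouts 2 and 3 carry the same value. Cdc20, an activator of the anaphase-promoting complex, differed by -0.18 ± 0.13, and Birc5, the survivin of the chromosomal passenger complex, by -0.084 ± 0.077. The adjusted p was 1.00 for all 5.

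**Figure D1:**
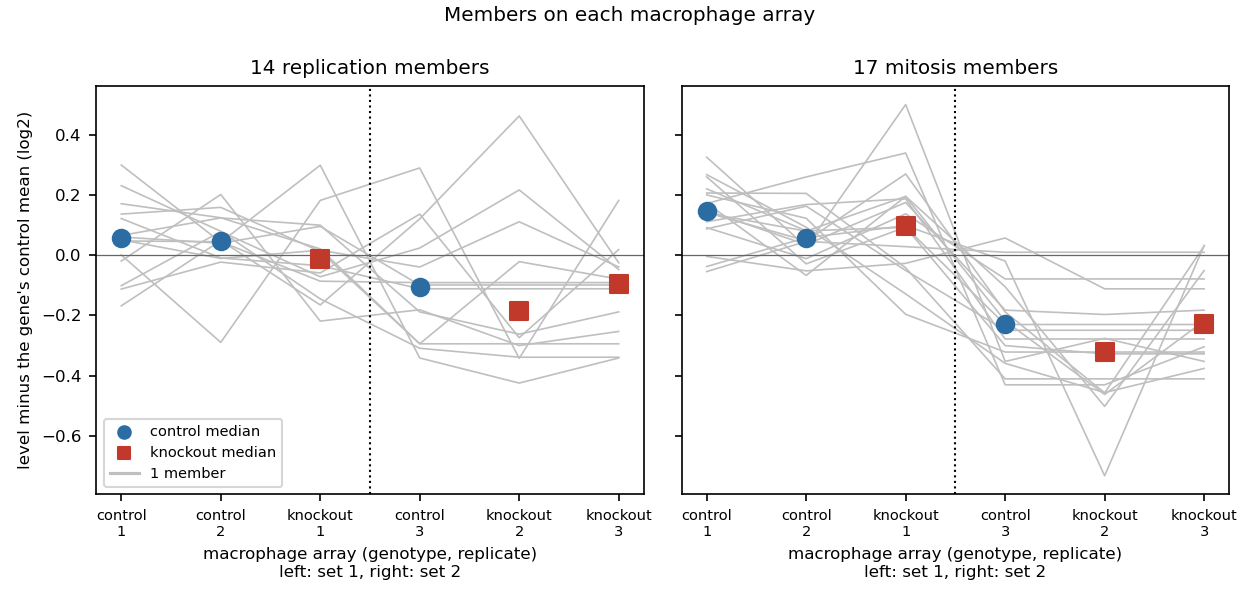
Level of each replication gene (left, 14 genes) and mitosis gene (right, 17 genes) past the filter on each of the 6 macrophage arrays, as log2 level minus the mean of the gene's 3 controls. Grey lines are genes, blue circles the median on a control array and red squares the median on a knockout array, and the dotted line divides set 1 from set 2. The mitosis medians lie between 0.058 and 0.15 on the 3 arrays of set 1 and between -0.32 and -0.23 on the 3 arrays of set 2, with a control in each set.

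The mitosis genes separated the 2 sets of arrays more widely than the 2 genotypes. Set 2 lay below set 1 for 16 of 17 mitosis genes, by a median of -0.36, and for 10 of 14 replication genes, by -0.15; all genes tested were lower in set 2 in 73.7% of cases, by a median of -0.13. The same split stands within each genotype, although for 7 of the 17 mitosis genes both genotypes carry the same set 2 value. The 2 splits are therefore not independent. Control 3 lay below the mean of controls 1 and 2 for 15 of 17 mitosis genes, by a median of -0.35, and knockouts 2 and 3 lay on average below knockout 1 for 17 of 17, by -0.37; over all genes tested the shares were 72.5% and 72.2% and the medians -0.12 and -0.15. Kif11, the kinesin that keeps spindle poles apart, had the widest gap, at 6.73, 6.82 and 6.90 in set 1 against 6.13, 6.13 and 6.25 in set 2. Mki67, the common marker of dividing cells, read 7.62 and 7.32 in controls and 7.79 in the knockout of set 1, and 6.94 in the control and 7.02 and 6.94 in the knockouts of set 2. Its arrays of set 2 all lay below those of set 1, whatever the genotype. The 3 arrays of set 2 hold 1 control and 2 knockouts, and those of set 1 hold 2 controls and 1 knockout.

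The count of lower mitosis genes was smaller within the sets, in set 2 in part because tied genes cannot be lower. Inside set 1 the knockout was lower than the controls for 6 of 17 mitosis genes and higher for 11, with a median of 0.048, where 42.6% of all genes were lower. Inside set 2 it was lower for 8, higher for 2 and equal for 7. Over all genes tested 4798 (31.9%) were lower there, 4049 higher and 6192 equal. Replication genes were lower for 9 of 14 inside set 1, with a median of -0.076, and inside set 2 they were lower for 6, higher for 4 and equal for 4. With the set as a block in limma, 10 of 17 mitosis genes were lower and 7 higher, with a median of -0.015, and 9 of 14 replication genes were lower, with a median of -0.019, against 43.7% of all genes. No member was called with the block, and the adjusted p of each gene tested was at least 0.932. Mki67 went from -0.043 to 0.18 with the block, while Tyms went from -0.26 to -0.20, Foxm1 from -0.28 to -0.18 and Plk1 from -0.32 to -0.18. The block weighs both sets equally, and a gene tied on all arrays of set 2 adds exactly 0 there. Within set 1 Tyms differed by -0.31, Foxm1 by -0.36 and Plk1 by -0.31. Within set 2 they differed by -0.095, 0 (a tie) and -0.057.

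**Figure D2:**
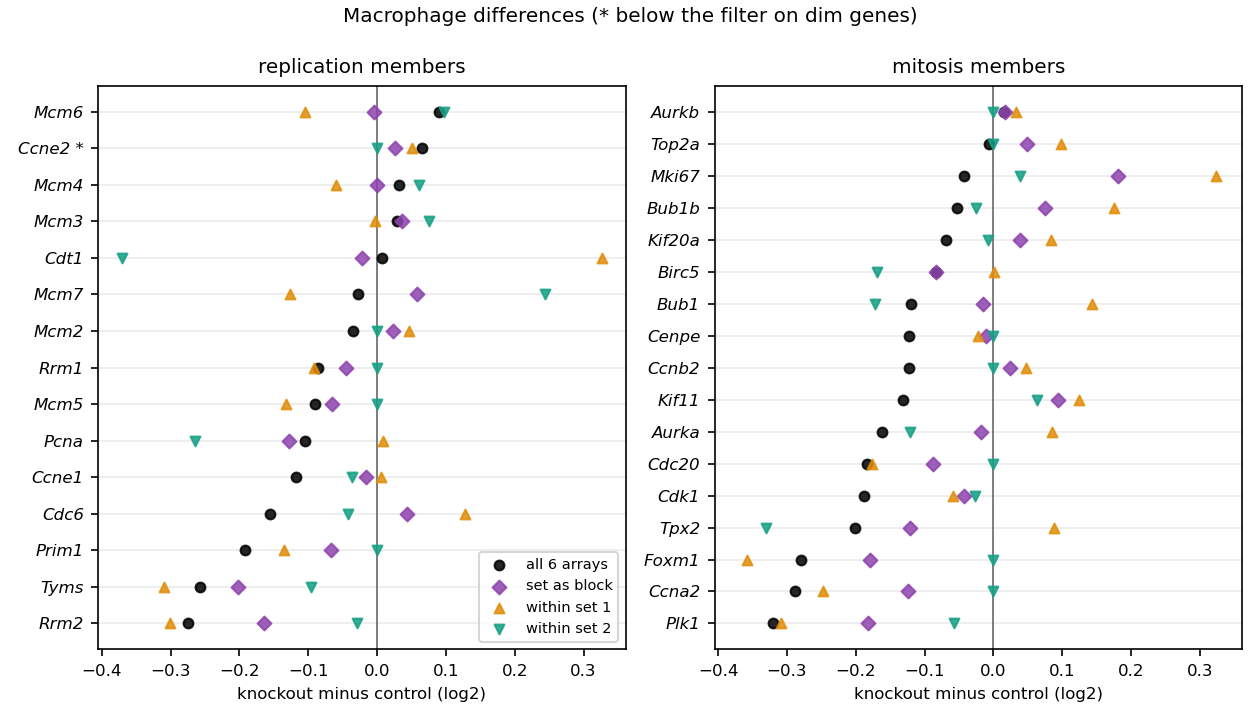
Macrophage difference, knockout minus control on the log2 scale, of each replication gene (left) and mitosis gene (right): over all 6 arrays (black circles), with the set as a block (purple diamonds), within set 1 (orange triangles pointing up) and within set 2 (green triangles pointing down). An asterisk marks Ccne2, below the filter on dim genes. Of the 17 mitosis genes 16 black circles lie left of 0, by a median of -0.12, and 10 diamonds do, by a median of -0.015.

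Single arrays moved the group medians. Without control 1 the median was -0.022 for replication and -0.068 for mitosis genes, and without control 3 it was -0.14 and -0.24. Without knockout 1 the median of mitosis genes was -0.28. Without knockout 2 it was -0.012, with 10 of 17 lower, and that of replication genes was -0.052, with 13 of 14 lower. On knockout 2 Tpx2, a spindle assembly factor, read 7.31 against 8.14 and 8.07 on knockouts 1 and 3 and a control mean of 8.04 ± 0.051 (SD, n = 3). B cell markers also stood apart on this array: the 5 that passed the filter had a median 1.59 above the control mean, and the summed level of all 6 ran from 767 to 1680 in controls and from 712 to 3971 in knockouts, with no marker at 0. Mesothelial markers had a median of -0.65 relative to the control mean there, but also of -0.47 on knockout 3, and 6 of 7 were lower in knockouts. Mast cell markers past the filter had a median of 0.56 relative to the control mean on knockout 2, and of -0.69 and -0.43 on knockouts 1 and 3. The part of these cells in the values of knockout 2 was not tested.

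Of the other mitosis genes, the range over the 6 macrophage arrays was 5.69 to 6.39 for Bub1 and 6.83 to 7.55 for Bub1b, which encode spindle checkpoint kinases. Aurka ranged from 6.77 to 7.42, whereas Aurkb, the kinase of the passenger complex, lay between 7.37 and 7.47 and was the only mitosis gene with a higher knockout mean, by 0.016. Cdk1 lay between 6.71 and 7.26, Ccnb2 between 6.76 and 7.22, Top2a between 7.47 and 7.68, Kif20a between 6.28 and 6.65 and Cenpe between 5.90 and 6.39. In none of them did the genotypes separate. For Mki67, the 95% interval of the difference ran from -0.69 to 0.60 in the fit without the set as a block. That fit therefore did not exclude changes within these limits in either direction. Its SE for Mki67 was 0.27, and with the set as a block the SE was 0.12.

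Genes of the same pathways outside the 2 groups were not called either. Of 42 other replication genes tested, 27 were lower in knockouts (median -0.027), near the 63.5% of all genes, and with arrays centred on their medians 19 were lower; the smallest p were those of Clspn (-0.19), Gmnn (-0.19) and Rpa3 (-0.23). Of 43 other mitosis genes, 30 were lower (median -0.062), and 23 after centring. Shcbp1, which had an unadjusted p under 0.05, was lower on every knockout array (-0.25; limma, adjusted p = 1.00), while Ndc80, of the outer kinetochore, was higher by 0.27 and Nuf2, of the same complex, lower by 0.28. These partners in the NDC80 complex thus lay on opposite sides of 0.

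In liver no member passed the threshold either. Of 15942 genes tested with limma, 1 was called (0.00627%, Idi1 of the sterol pathway, higher) and 0 were called lower, while 684 (4.29%) had an unadjusted p under 0.05. Among members, 5 of the 29 tested had an unadjusted p under 0.05, with Mcm3, Cdc6 and Tpx2 lower and Tyms and Plk1 higher, against 2.75% and 1.54% of all genes. Replication genes were lower in knockouts for 13 of 15 (median -0.11), and mitosis genes for 7 of the 14 that passed the filter (median -0.028; Bub1, Kif11 and Cenpe did not pass), against 57.2% of all genes tested and a median of -0.023.

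Mcm3 and Cdc6 had the smallest p among lower replication genes. Mcm3 read 7.07 and 6.81 in controls, and the knockouts were at 6.42 and 6.51; the difference was -0.48 ± 0.14 (SE, n = 2 and 2; limma, adjusted p = 1.00), or 71.9% of control. Cdc6 read 6.26 and 6.24 in controls, and the knockouts were at 5.99 and 5.70; the difference was -0.40 ± 0.15 (limma, adjusted p = 1.00). Both knockouts lay below both controls for these genes, and for Cdt1 and Mcm6; 18% of all genes tested did so. Cdt1 read 6.90 and 6.61 against 6.51 and 6.51 (-0.25 ± 0.15), and Mcm6 read 7.38 and 7.15 against 7.13 and 6.96. Mcm7 had control levels of 7.65 and 7.43 and knockout levels of 6.90 and 7.49, so that its difference of -0.34 ± 0.20 rested on knockout 1.

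The other helicase subunits overlapped between genotypes, Mcm2 between 6.76 and 7.07, Mcm4 between 6.40 and 6.57 and Mcm5 between 6.65 and 7.03 over the 4 arrays. Of the synthesis genes, Tyms went the other way. It read 6.45 and 6.53 in controls, and the knockouts were at 6.76 and 6.97; the difference was 0.38 ± 0.14 (limma, adjusted p = 1.00), with both knockouts above both controls, as for 11.8% of all genes. Rrm2 had control levels of 6.55 and 6.50 and knockout levels of 6.90 and 6.13, which lay on either side of the controls. Rrm1 lay between 7.16 and 7.53, Prim1 between 6.10 and 6.47, Pcna between 8.50 and 8.77, Ccne1 between 6.03 and 6.35 and Ccne2 between 4.79 and 5.24, each with overlapping genotypes.

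Mitosis genes in liver had no common direction. Plk1 read 5.09 and 5.39 in controls, and the knockouts were at 5.91 and 5.61; the difference was 0.52 ± 0.16 (SE, n = 2 and 2; limma, adjusted p = 1.00). Tpx2, the spindle assembly factor, went down instead, from 5.37 and 5.28 to 5.02 and 4.95, by -0.34 ± 0.13 (limma, adjusted p = 1.00). Neither gene had overlapping genotypes. Foxm1 differed by -0.25 ± 0.13, Bub1b by -0.20 ± 0.13 and Ccnb2, cyclin B2, by 0.18 ± 0.14, each without overlap. Of the 14 mitosis genes tested, 3 were lower and 2 higher without overlap, against 18% and 11.8% of all genes tested. Differences of the other 9 tested mitosis genes lay between -0.12 for Ccna2 and 0.13 for Cdc20. Mki67 had control levels of 5.32 and 5.21 and knockout levels of 5.33 and 5.07, and Top2a 5.49 and 5.32 against 5.54 and 5.06, so that neither of these markers of dividing cells separated the genotypes.

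**Figure D3:**
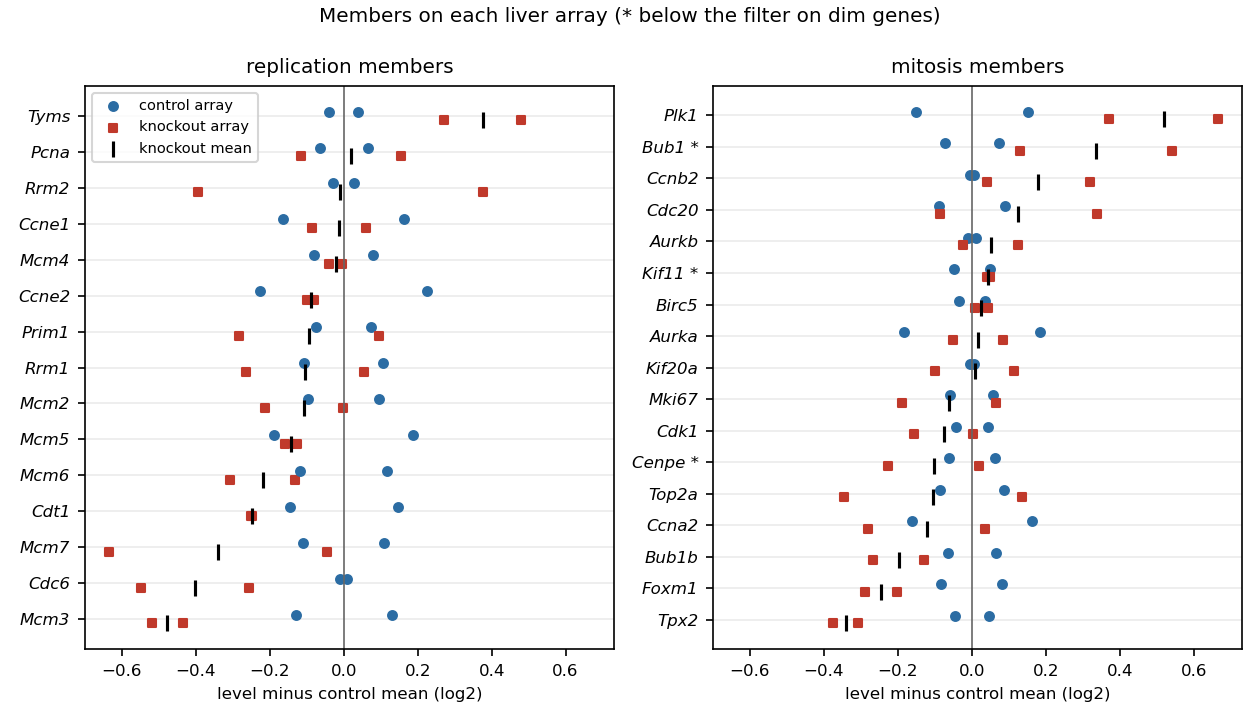
Level of each replication gene (left) and mitosis gene (right) on each of the 4 liver arrays, as log2 level minus the mean of the gene's 2 controls; blue circles are control arrays, red squares knockout arrays and black bars the knockout mean. Asterisks mark genes below the filter. Mcm3 and Cdc6 lie left of 0 and Tyms and Plk1 right of 0 on both knockout arrays.

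The liver group median rested on single arrays. For replication genes the median level on control 1 lay 0.11 above and on control 2 0.11 below the control mean, which is symmetric by construction, and the knockouts lay at -0.13 and -0.085, close to control 2. Without control 1 the median difference was 0.0024, with 7 of 15 genes lower, and without control 2 it was -0.21, with 14 of 15 lower. The mitosis median ran from -0.12 without control 2 to 0.055 without knockout 2. Kupffer cell markers were lower in knockouts for 5 of 5 genes, with sums from 4980 to 6340 in controls and from 3198 to 4687 in knockouts, and macrophage markers for 7 of 8, with sums from 4657 to 6170 and from 3663 to 4199. The median of the Kupffer markers relative to the control mean was 0.16 on knockout 1 and -0.98 on knockout 2. By this median only knockout 2 was lower, while by the sums both knockouts lay below both controls. Neither list had a marker at 0, and the part of these cells in the values of the cell cycle genes was not tested.

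Other genes of the pathways in liver were likewise not called. Against 57.2% of all genes, 24 of 40 other replication genes tested were lower (median -0.017), with the smallest p in Gins4 (-0.28), Uhrf1 (-0.26) and Clspn (0.23). Of 35 other mitosis genes tested, 28 were lower (median -0.069), with the smallest p in Dlgap5 (-0.27), Lmnb1 (-0.29) and Incenp (-0.27). None of these had an unadjusted p under 0.05.

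The macrophage difference was set against the liver difference in 1 limma fit over all 10 arrays, a contrast in which sex, diet and age change with the tissue. No gene of 16363 was called, and 345 (2.11%) had an unadjusted p under 0.05. Among all 32 members these were Tyms, lower in knockout macrophages and higher in knockout livers (difference of differences -0.63 ± 0.18; limma, adjusted p = 1.00), Mcm3 (0.51 ± 0.16; adjusted p = 1.00) and Plk1 (-0.84 ± 0.27; adjusted p = 1.00). The differences of these 3 genes had opposite signs in the 2 tissues, and none passed the threshold over all genes.

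Levels of the genes were also set side by side between macrophages and liver. Each level was taken relative to the median of its array, because the values of the tissues lie on different scales and the normalization is not known, and no test was made. Mitosis genes were higher in macrophages for 16 of 17, by a median of 0.81, and for 14 of them every macrophage array lay above every liver array, as for 34.2% of all genes. Replication genes were higher for 9 of 15, 8 of them without overlap, by a median of 0.30. Of all genes past the filter in either tissue 49.9% were higher in macrophages, with a median of -0.0016. Tpx2 stood at 1.27 relative to the array median in macrophages and at -0.75 in liver. Cdt1 differed by 2.27 and Pcna by 1.94, higher in macrophages, and Tyms by -0.84, higher in liver. Birc5 was the exception among mitosis genes, at -0.051. Sex, diet and age differed with the tissue.

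**Figure D4:**
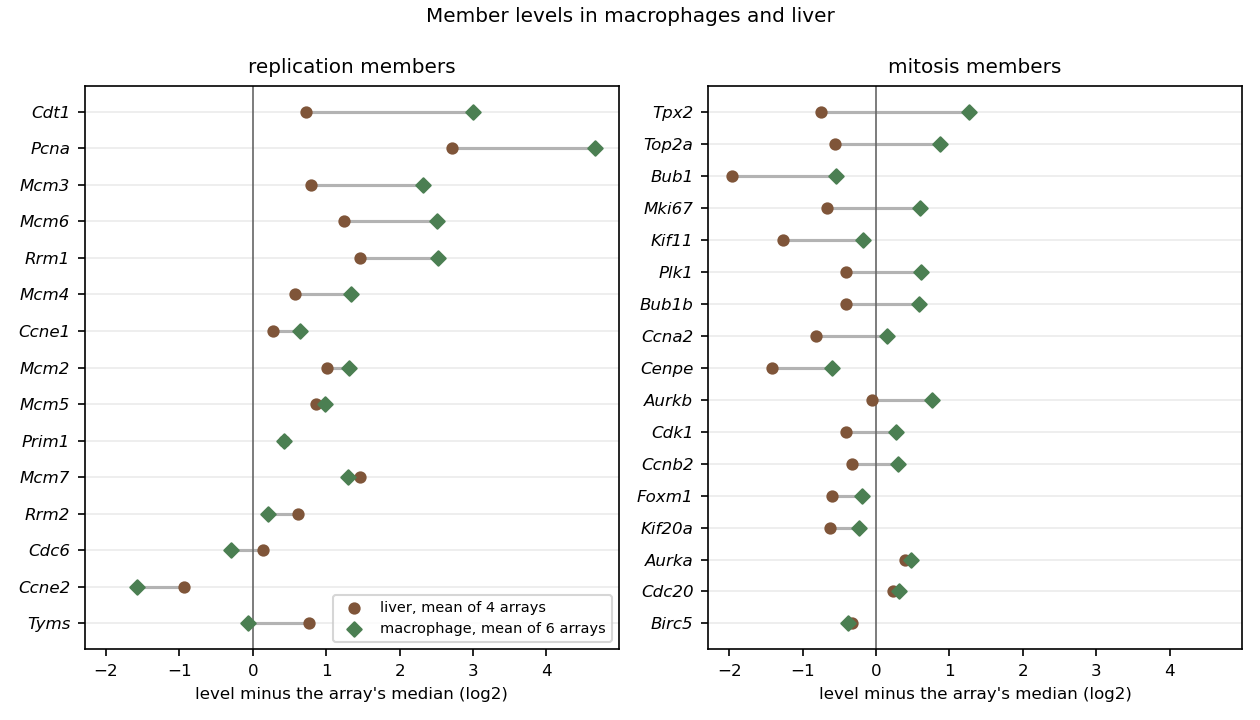
Level of each replication gene (left) and mitosis gene (right) relative to the median of its array, in log2 units: brown circles give the mean of 4 liver arrays and green diamonds the mean of 6 macrophage arrays. The diamonds of 16 of 17 mitosis genes lie right of the circles, and the replication genes lie on either side.

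In the aorta most members read higher in the knockout pool. Each genotype had 1 pooled array, so there is no replicate check and no test, and each value describes these 2 pools. Replication genes read higher in the knockout pool for 15 of 15 and mitosis genes for 15 of 17, against 54.4% of all 12394 genes measured and 62.3% of those below the filter on dim genes. With both pools scaled to the same median, 15 of 15 and 14 of 17 were higher, Tpx2 turning lower, against 42.6% of all genes. The ratio of knockout to control signal was at least 2 for 9 of 32 members, against 8.63% of all genes, bright ones included. All 9 had dim control signals, between 2.85 and 19.9. Among members whose control signal reached the filter, the highest ratio was 1.55, for Mcm4. The median ratio was 1.45 for replication and 1.43 for mitosis genes. Aorta differences are given as log2(signal + 16), a scale that makes changes of dim genes look smaller; on it the medians were 0.32 and 0.23.

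Most of these signals were low. The filter was a signal of 32.6, the median of all probe sets, on the brighter array. On the control pool 6 members reached it (Mcm4, Mcm6, Mcm7, Pcna, Rrm1 and Cdt1), and all 6 read higher in the knockout pool. Of all 6758 genes that reached it on the control pool, 3104 read higher. A further 7 reached it only on the knockout pool and so had to be higher there, and 19 lay below it on both. Of all genes past the filter 48.5% were higher, and nothing is read from this share for members that entered it in that way. Taking instead the 9 members whose mean over both pools reached it, all replication genes, 9 of 9 were higher, against 47.8% of all genes chosen in that way. Of these 9, Mcm2, Mcm3 and Rrm2 lay below it on the control pool and so had to be higher.

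Mcm2 and Rrm2 passed 2-fold on the log2(signal + 16) scale, as did 0.873% of genes past the filter in this direction; both entered the filter only through the knockout pool, so nothing is read from this share. No member past the filter was 2-fold lower, as 0.394% of genes were. Mcm2 had a signal of 13.4 in controls and 69.0 in knockouts, a difference of 1.53, but its other probe set read 11.8 and 17.0. For Mcm2 the 2 probe sets therefore gave the same direction and different sizes. Rrm2 read 19.9 and 58.3 (1.05), and its 2 dimmer probe sets read 7.28 and 31.6, and 5.65 and 14.4. All 3 of them were higher. Mcm3 read 31.6 and 55.4 (0.59), Mcm4 86.9 and 134.6 (0.55) and Pcna 259 and 370 (0.49). These 3 genes, which belong to the helicase and the clamp, differed by less than 2-fold on that scale. Mcm6 read 46.5 and 67.2, Mcm7 125 and 160, Rrm1 43.0 and 48.7, Cdt1 43.5 and 53.7, and Prim1 27.9 and 35.4.

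Of the mitosis genes, 3 reached the filter, each through the knockout pool. Mki67 read 16.8 and 45.6 (0.91), Top2a, the topoisomerase that untangles sister chromatids, 15.8 and 40.3 (0.83), and Cdc20 27.9 and 35.6 (0.23). Birc5 read 7.76 and 25.2, below the filter. Plk1 went from 8.72 to 7.75 and Cenpe, a kinetochore motor, from 2.77 to 1.99, the members that read lower. The other 11 mitosis genes and the 5 dim replication genes had signals between 2.85 and 30.5 and read higher in the knockout pool.

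**Figure D5:**
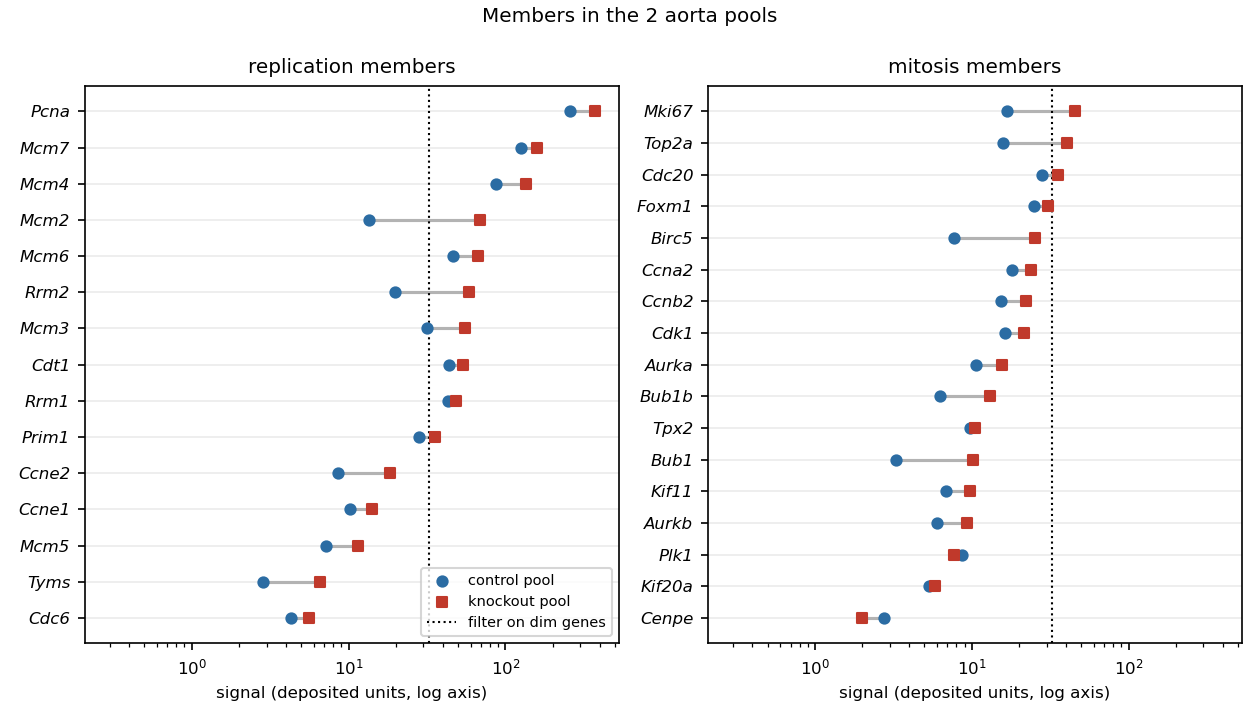
Signal of each replication gene (left) and mitosis gene (right) in the control pool (blue circles) and the knockout pool (red squares) of aorta RNA, 1 array each, on a log axis; the dotted line is the filter on dim genes at 32.6. All replication genes and all mitosis genes but Plk1 and Cenpe lie further right in the knockout pool (with pools scaled to the same median, Tpx2 does not), and most mitosis genes lie left of the filter in both pools.

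Probe sets of a gene mostly pointed the same way. Of 33 probe sets of replication genes 32 were higher in the knockout pool, and of 29 of mitosis genes 25, against 55.3% of all 20393 probe sets with 1 gene; with pools scaled to the same median 30 and 23 were higher. The lower ones besides those of Plk1 and Cenpe were a second probe set each of Cdt1 (10.2 and 6.46), Bub1 (2.60 and 2.40) and Foxm1 (2.29 and 0.212), all below the filter. Probe sets of 1 gene share the same 2 pools of RNA and are not replicates.

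Genes of the same pathways outside the 2 groups were also mostly higher in the knockout pool. Of 38 other replication genes measured 31 were higher (median 0.23), and 30 with pools scaled to the same median, among them Usp1 (134 and 205), Dnmt1 (46.5 and 75.3) and Dut (47.4 and 71.9). Of 44 other mitosis genes measured 39 were higher (median 0.34), and 35 after this scaling, among them Hmgb2 (56.6 and 144), Cks1b (101 and 215) and Pbk (10.1 and 32.8). Over all genes measured 54.4% were higher, and 42.6% after scaling. Pbk reached the filter only through the knockout pool. On the log2(signal + 16) scale Hmgb2 alone of those past the filter passed 2-fold.

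Markers of other cells moved in the same 2 pools. B cell markers were higher in the knockout pool for 6 of 6 genes, with sums of 105 and 687, and T cell markers for 5 of 5, with sums of 28.6 and 157; none lay at 0. Smooth muscle markers were higher for 5 of 5 (3621 and 4477), macrophage markers for 6 of 8 (3806 and 4103; 5 of 8 with pools scaled to the same median), endothelial markers lower for 5 of 5 (1211 and 973), and skeletal muscle markers lower for 5 of 5 (8093 and 4563). How far these cells contribute to the higher cell cycle genes was not tested.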

How the data were processed

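RNA of macrophages and liver was hybridised to the Affymetrix Mouse Gene 1.0 ST array and RNA of aorta to the Mouse Genome 430A 2.0 array, per the labels. Per the submitters' processing notes, the authors ran Affymetrix Expression Console. Which version, algorithm and settings they chose is not given in the sources used here. In macrophages and liver the deposited values are log2 levels, already summarised per probe set by the authors, and the deposited aorta values are linear intensity, with a trimmed mean of 100.0 on both arrays. Neither was normalized again, so differences between sets of arrays remain in the values.

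Probe sets with 1 gene symbol in the platform annotation were used (21789 of 35557 and 20393 of 22690). Genes were tested where their mean reached the 30th percentile over probe sets (5.74 in macrophages, 4.87 in liver); in the aorta 7098 of 12394 genes reached a signal of 32.6 on the brighter array. Macrophages and liver were fitted apart with limma 3.58.1 in R 4.3.3 (lmFit, eBayes, no covariate), with Benjamini-Hochberg adjustment over all genes tested and calls at 0.05; the fits were tested on simulated data. The members and lists were chosen with earlier results of these data known. Differences with SE and p are given for up to 5 genes of each group with the smallest p, up to 5 with the largest difference past the filter in the aorta, and up to 3 of each pathway list; other members are given by level and range, and single arrays, probe sets and markers that stand apart were named after their values were seen.

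Replicate numbers were not taken as pairs, although same-numbered macrophage samples were of the same age: same-numbered controls and knockouts deviated together with r = 0.40, 0.030 and 0.50 in macrophages and 0.11 in liver, over all genes. Scaling, filter, probe set rule, prior, pseudocount, left-out arrays, the set of arrays and the replicate number as a block were tried as alternatives.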

Additional observations from a re-analysis of the deposited data

How the results depend on the processing

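With limma, 0 macrophage genes were called under every alternative tried, and no member was called in either tissue under any of them (adjusted p from 0.568 to 1 in macrophages and from 0.269 to 1 in liver). The 1 liver call was lost with quantile normalization, without a filter, with a trended prior and with all 10 arrays in 1 fit (0 calls each), and leaving out an array gave 0 to 36. With the replicate number as a block 23 liver genes and 0 macrophage genes were called, none of them a member, and the counts of members in each direction did not change; same-numbered macrophage samples also share their age, and liver samples share a number alone. Leaving out an array gave 0 to 1 calls for the contrast of the tissues. In the aorta 169 genes passed 2-fold with a pseudocount of 1 and 37 with 64, against 90 with 16; the median over the members was 0.52 and 0.18 for replication and 0.46 and 0.093 for mitosis genes with these pseudocounts, and 0.83 for the 3 mitosis genes past the filter, which they reached only through the knockout pool. Scaling both pools to the same median moved the median of all genes past the filter from -0.0096 to -0.11. Over all 12394 genes measured it moved from 0.020 to -0.036. Over all members measured 15 of 15 replication and 14 of 17 mitosis genes were then higher. The liver mitosis median was 0.071 for the 2 genes above the 50th percentile. The cause of these shifts was not tested.

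Group medians without 1 array ran from -0.14 to -0.022 (replication) and from -0.28 to -0.012 (mitosis) in macrophages, and from -0.21 to 0.0024 and from -0.12 to 0.055 in liver. Of 632 tested values of 43 macrophage genes under the alternatives, 594 kept direction and side of the threshold and 38 turned sign, 23 of these without 1 array; of 86 untested values within a set of arrays, 51 kept their sign, 14 were 0 and 21 turned, 17 of them in set 1; of 473 values of 41 liver genes, 449 kept and 24 turned, 23 of them without 1 array; of 141 aorta values 63 moved by over 1.5 times or turned, and the 1 that turned was Tpx2, from 0.040 to -0.0031 with pools scaled to the same median. With the set of arrays as a block the macrophage differences that turned were Mcm2 0.023, Mcm6 -0.0037, Mcm7 0.059, Cdc6 0.043, Cdt1 -0.022, Mki67 0.18, Top2a 0.049, Ccnb2 0.024, Bub1b 0.075, Kif11 0.093 and Kif20a 0.038. Centring on the median and quantile normalization turned Mcm7 (0.0044 and 0.0042) and Top2a (0.024 and 0.021), and quantile normalization turned Rrm2 in liver (0.016). Without 1 array, macrophage differences that turned ran over Aurkb -0.012 to 0.038, Bub1 -0.28 to 0.072, Bub1b -0.21 to 0.15, Cdt1 -0.14 to 0.18, Cenpe -0.24 to 0.0071, Kif11 -0.37 to 0.017, Kif20a -0.19 to 0.0055, Mcm3 -0.012 to 0.063, Mcm4 -0.060 to 0.084, Mcm6 -0.096 to 0.22, Mcm7 -0.17 to 0.058, Mki67 -0.31 to 0.12, Top2a -0.079 to 0.038 and Tpx2 -0.35 to 0.065. In liver they ran over Aurka -0.17 to 0.20, Aurkb -0.023 to 0.12, Birc5 -0.0090 to 0.060, Ccna2 -0.28 to 0.040, Ccne1 -0.18 to 0.15, Ccne2 -0.32 to 0.14, Cdc20 -0.087 to 0.34, Cdk1 -0.16 to 0.0022, Kif20a -0.10 to 0.11, Mcm4 -0.10 to 0.059, Mcm5 -0.33 to 0.046, Mki67 -0.19 to 0.066, Pcna -0.12 to 0.15, Prim1 -0.28 to 0.096, Rrm1 -0.26 to 0.054, Rrm2 -0.39 to 0.38 and Top2a -0.35 to 0.14. None of the members so listed was called.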

Other observations

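Genes that decide entry into the cycle were measured beside the members. Of 21 cyclins, kinases and E2F factors of G1 tested in macrophages, 14 were lower in knockouts (median -0.024) and none was called with limma; the smallest p were those of Cdk4 (-0.20), Mybl2 (-0.18) and E2f8 (-0.18). In liver 15 of 21 were lower (median -0.066), none was called, and Mybl2, which acts with the mitosis genes, had control levels of 6.35 and 6.11 and knockout levels of 5.96 and 5.38 (-0.55 ± 0.20, SE, n = 2 and 2; limma, adjusted p = 1.00). In the aorta 6 of 10 past the filter were higher in the knockout pool (median 0.070; 4 of 10 and -0.027 with pools scaled to the same median), with E2f6 at 142 and 99.8, Cdk2 at 37.2 and 50.9 and Ccnd1 at 163 and 136. These values have no replicate check.

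Inhibitors and brakes of the cycle did not share the step between the sets of macrophage arrays. Control 3 was higher than the mean of controls 1 and 2 for 12 of 18 of them (median 0.073), where it was lower for 15 of 17 mitosis genes and 72.5% of all genes. Knockouts 2 and 3 lay on average above knockout 1 for 10 of the 18 brakes (median 0.0098). Over all 6 arrays set 2 lay above set 1 for 10 of the 18 (median 0.0071), so the brakes had no clear step in either direction. Between genotypes 10 of 18 were lower in macrophages (median -0.018) and 12 of 18 in liver (median -0.096), and none was called with limma. Gadd45a, induced by DNA damage and stress, had levels of 9.65, 9.65 and 10.13 in control macrophages, with knockouts at 9.26, 8.70 and 9.50, without overlap (-0.66 ± 0.23; limma, adjusted p = 1.00), and the difference was -0.39 within set 1 and -1.03 within set 2. In liver it read 7.86 and 7.38 against 7.72 and 7.36. In the aorta 9 of 16 brakes past the filter were higher in the knockout pool (median 0.10), against 48.5% of all genes past it. Cdkn2d read 71.8 and 104, and Btg2 220 and 157. Rbl1, at 27.1 and 45.8, reached the filter only through the knockout pool and so had to be higher. Of all 19 brakes measured 10 were higher (median 0.095), against 54.4% of all genes. With pools scaled to the same median 10 were higher (median 0.0026), against 42.6%.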
